A study of Mus musculus with 6 samples.

Results

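The 10 genes described here encode receptors and receptor partners that mark maturing and mature B cells: Cd22, Cd72, Cr2, Ms4a1, Cd37, Fcer2a, Cd40, Cd86, Cd83 and Bank1. They were taken by name from the 19938 genes that the array measured with probe sets of exactly 1 gene symbol, and all 10 were found. Where a gene has several probe sets, the one used is chosen by the highest mean over all arrays, but each of these genes had 1, so no measured value decided between probe sets. The genes themselves were listed with earlier KO and WT values of these arrays known, so their counts and medians describe them and are not independent support for a direction. Surface proteins are encoded by 9 of the 10, but not all of these are receptors: CD20 and the tetraspanin CD37 organise the membrane, and CD86 is a ligand. Bank1 encodes a cytoplasmic scaffold that binds antigen receptor signalling kinases, and not a surface protein. The 10 are called receptor genes below for short.

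RNA was measured on 1-colour microarrays in leukaemic mouse B cells with or without gamma-catenin (plakoglobin, gene Jup), a junction protein closely related to beta-catenin. The 3 knockout (KO) samples were Jup-/- and the 3 wild-type (WT) samples Jup+/+, all on the C57BL/6 background, and each sample was hybridised to 1 array. Fetal liver cells of KO or WT embryos (CD45.2+) had first repopulated CD45.1+ B6 hosts, and marrow of these chimeras was transduced with a retrovirus that carries GFP and BCR-ABL1, a constitutively active fusion kinase that drives leukaemia. Irradiated CD45.1+ B6 recipients received it, and GFP+ B220+ BP-1+ CD45.2+ cells were sorted at day 21, so every sample expressed BCR-ABL1. In the KO group only the donor cells lacked Jup. The sources used here do not give the animals' age or say whether a sample pooled recipients. The samples are labelled biological replicates, and p-values measure the spread between them.

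As B cells leave the precursor stage they lose the surrogate light chain and the recombinase and gain a set of surface proteins that tune the antigen receptor and receive help from T cells. CD22 and CD72 are inhibitory receptors whose cytoplasmic motifs recruit the phosphatase SHP-1, and CR2 (CD21) is a complement receptor that lowers the threshold of activation. CD20 (Ms4a1) and the tetraspanin CD37 organise the B cell membrane, CD23 (Fcer2a) binds IgE with low affinity, and CD40, CD86 and CD83 act in the contact with T cells. CD20 and CD22 appear earlier in this path than CD21 and CD23, which mark the later transitional and mature stages.

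Promoter sequence could be set beside the values for 6 of the 10 genes, those held in RefSeq's table of assembly GRCm38.p6. Shown are the 250 bases before the annotated start of Cd22 and Cd72, which differed most between KO and WT among these 6, and of Cd37 and Bank1, which differed little. Capitals mark motif matches on either strand.
Cd22 (chr7:30879029-30879278, minus strand): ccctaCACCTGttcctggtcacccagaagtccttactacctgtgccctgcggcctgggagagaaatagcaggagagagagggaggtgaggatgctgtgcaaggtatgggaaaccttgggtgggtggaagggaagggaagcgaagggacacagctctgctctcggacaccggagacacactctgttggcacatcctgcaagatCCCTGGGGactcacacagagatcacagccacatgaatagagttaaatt
Cd72 (chr4:43454627-43454876, minus strand): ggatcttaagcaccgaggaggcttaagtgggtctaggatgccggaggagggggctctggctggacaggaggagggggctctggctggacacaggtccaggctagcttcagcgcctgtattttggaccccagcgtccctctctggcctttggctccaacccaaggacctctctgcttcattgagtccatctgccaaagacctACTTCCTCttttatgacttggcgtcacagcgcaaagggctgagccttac
Cd37 (chr7:45238840-45239089, minus strand): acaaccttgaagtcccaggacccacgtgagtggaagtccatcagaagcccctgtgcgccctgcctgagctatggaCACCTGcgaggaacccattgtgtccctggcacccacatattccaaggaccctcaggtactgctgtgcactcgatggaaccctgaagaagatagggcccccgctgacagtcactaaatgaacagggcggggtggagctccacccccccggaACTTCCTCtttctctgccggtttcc
Bank1 (chr3:136326067-136326316, minus strand): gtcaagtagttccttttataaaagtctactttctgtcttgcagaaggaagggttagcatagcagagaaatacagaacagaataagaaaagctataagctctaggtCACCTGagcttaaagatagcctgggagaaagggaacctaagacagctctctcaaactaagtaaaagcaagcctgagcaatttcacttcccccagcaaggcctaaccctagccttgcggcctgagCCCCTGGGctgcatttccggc
The motifs searched were the EBF motif CCCNNGGG, the PU.1 motif GAGGAAGT, the E2A E-box CAGGTG, the octamer ATGCAAAT, the TCF/LEF motif CTTTGAT, the FOXO motif GTAAACA and the NF-kB motif GGGANTTTC, and in the windows of these genes no match overlapped another. An EBF match began 48 bases before the start of Cd22 and another 21 bases before that of Bank1, and 11.8% of all 32851 windows of that length hold one. A PU.1 match began 49 bases before the start of Cd72 and another 25 bases before that of Cd37, against 2.44% of all windows. The E-box was matched in Cd22, Cd37, Bank1, Cr2 and 1 of the 3 windows of Fcer2a, and in 17.2% of all windows. The octamer, TCF/LEF, FOXO and NF-kB letters occurred in none of the 8 windows of these 6 genes, against 1.60%, 3.21%, 3.17% and 0.941% of all windows. A match is a description of the sequence and not a measured binding site.

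The 6 arrays had medians of 7.53 to 7.61 (log2). Jup itself measured 7.04, 7.06 and 7.27 in KO and 8.04, 7.62 and 8.51 in WT, -0.93 apart on the log2 scale (SE 0.20; limma, adjusted p = 0.171) and without overlap. The sources used here do not say whether its probe set lies in the deleted part. WT replicate 2 differed from the 5 other arrays in sex-linked transcripts, with Xist at 6.20 against 13.03 to 13.38, and without it the receptor genes below gave 5 without overlap, where 9.17% of all probe sets were so, and 5 higher at an unadjusted p under 0.05, against 3.32% of all.

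Cd22, Cd72 and Ms4a1 had the highest KO levels relative to WT, each by a log2 difference above 1, and Cd40 and Fcer2a had smaller differences in the same direction. In these 5 genes every KO array lay above every WT array, as did 5.94% of all probe sets. Cr2, Cd37, Cd83 and Cd86 had log2 differences between 0.04 and 0.08, and Bank1 one of -0.10. None of the 10 passed the threshold of the fit across all 21789 probe sets (0 of 10 at limma adjusted p under 0.05, against 0.119% of all probe sets, 11 higher and 15 lower). By unadjusted p under 0.05, 5 of the 10 were higher and 0 lower, against 4.48% and 4.73% of all probe sets. The KO mean was the higher one in 9 of the 10, against 44.2% of all probe sets. The median difference of the 10 genes was 0.24 on the log2 scale and that of all probe sets -0.02. No call of a rise is therefore made for any of these genes, and each is given by its values.

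**Figure D1:**
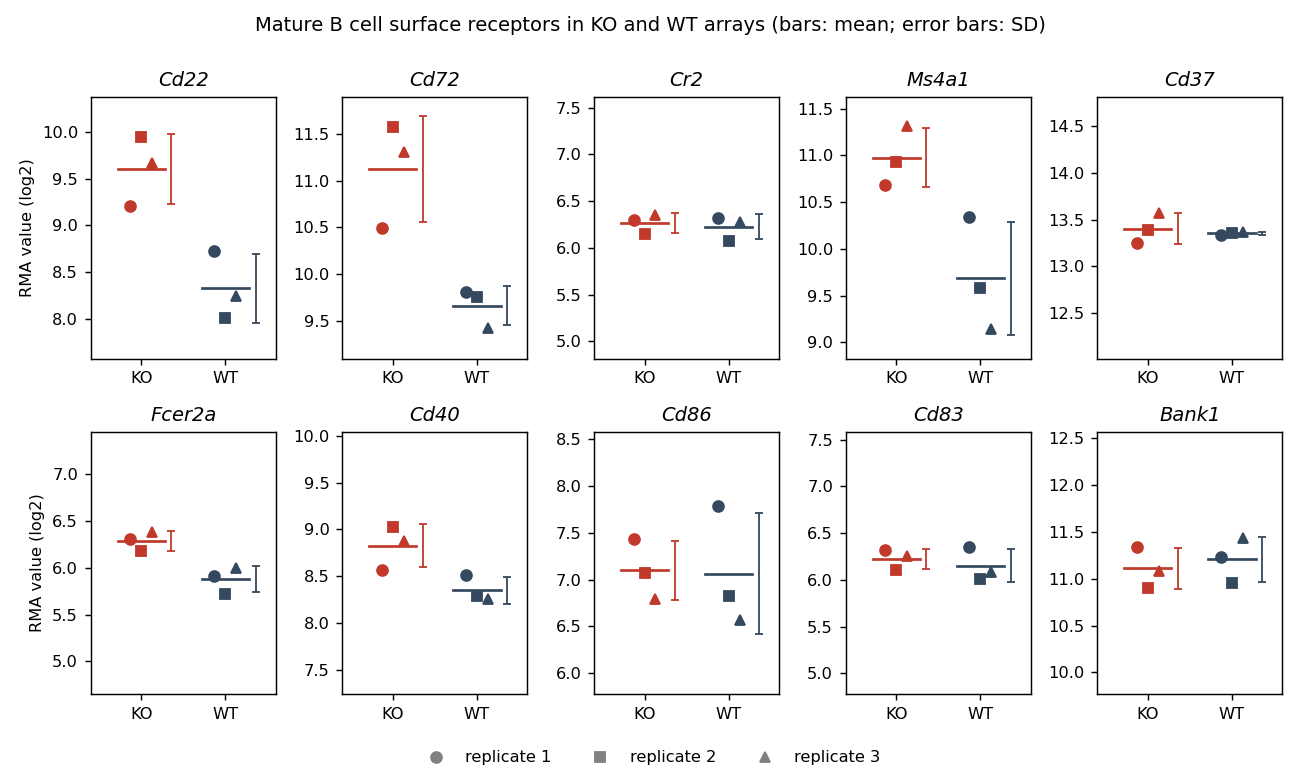
RMA value (log2, vertical axis) of each of the 10 genes in the 3 KO (red) and 3 WT (dark) arrays, with circles, squares and triangles for replicates 1, 2 and 3, a line at each group mean and error bars of 1 SD. All panels span the same range, and the KO and WT points do not overlap in Cd22, Cd72, Ms4a1, Fcer2a and Cd40.

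Cd22 (probe set 10562132), the sialic acid-binding inhibitory co-receptor of the antigen receptor, measured 9.20, 9.94 and 9.67 in KO replicates 1, 2 and 3, against 8.73, 8.01 and 8.24 in WT replicates 1, 2 and 3, on the log2 scale. The lowest KO array lay 0.48 above the highest WT array. The mean was 9.60 ± 0.37 in KO and 8.33 ± 0.36 in WT (SD, n = 3 each), a log2 difference of 1.28 (SE 0.22, 95% interval 0.77 to 1.78), or 2.42-fold higher in KO. It missed the threshold (limma, adjusted p = 0.106), and 0.317% of all probe sets had a larger moderated t in either direction.

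Cd72 (probe set 10512470), a C-type lectin that also carries inhibitory motifs, measured 10.49, 11.58 and 11.31 in KO and 9.81, 9.76 and 9.42 in WT. KO replicate 1 was the lowest KO array, yet 0.68 above the highest WT array, the widest gap among the 10 genes. The mean was 11.13 ± 0.56 in KO and 9.66 ± 0.21 in WT (SD, n = 3 each), a log2 difference of 1.46 (SE 0.25, 95% interval 0.89 to 2.03), or 2.75-fold higher in KO (limma, adjusted p = 0.106). Cd22 and Cd72 both passed when KO replicate 1, the lowest KO array of both, was left out (limma adjusted p = 0.0467 for Cd22 and 0.00891 for Cd72). Both also passed with array weights, and Cd72 with arrays centred on their medians (adjusted p = 0.0449). Under the other alternatives, 13 of 15 for Cd22 and 12 of 15 for Cd72, the gene did not pass (limma, adjusted p up to 0.296 and 0.285).

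Cr2 (probe set 10361292) encodes the complement receptors CD21 and CD35, which in mice come from the same gene. It measured 6.30, 6.15 and 6.36 in KO, against 6.32, 6.08 and 6.28 in WT, and the groups overlapped. The log2 difference was 0.04 (SE 0.10, 95% interval -0.18 to 0.26; limma, adjusted p = 0.951), an interval that leaves out differences of the size seen for Cd22 and Cd72. Its values lay below 7.58, the median of all tested probe sets, and RMA compresses changes of dim transcripts, which applies to Fcer2a, Cd83 and the mean of Cd86 as well.

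Ms4a1 (probe set 10466172), which encodes CD20, measured 10.68, 10.93 and 11.31 in KO replicates 1 to 3 and 10.34, 9.58 and 9.14 in WT replicates 1 to 3. WT replicate 1 came within 0.35 of the lowest KO array. The mean was 10.98 ± 0.32 in KO and 9.69 ± 0.60 in WT (SD, n = 3 each), a log2 difference of 1.29 (SE 0.28, 95% interval 0.65 to 1.93), or 2.44-fold higher in KO (limma, adjusted p = 0.178). Leaving out 1 array moved the difference between 1.02 and 1.61 and brought no call. With array weights, where WT replicate 1 had the lowest weight (0.336 against 0.938 to 2.12 in the others), the adjusted p was 0.0339.

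Cd37 (probe set 10563178), a tetraspanin of mature B cells, measured 13.25, 13.38 and 13.58 in KO and 13.34, 13.36 and 13.36 in WT, so that the KO arrays lay on both sides of the WT arrays. Its mean difference was 0.05 (SE 0.09, 95% interval -0.16 to 0.27; limma, adjusted p = 0.939).

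Fcer2a (probe set 10576757), the gene of CD23, measured 6.30, 6.18 and 6.38 in KO, against 5.91, 5.72 and 6.00 in WT. The groups did not overlap, with a gap of 0.18. The log2 difference was 0.41 (SE 0.10, 95% interval 0.19 to 0.63), or 1.33-fold higher in KO (limma, adjusted p = 0.229). Fcer2a and Cr2, the pair that marks the later stages, had estimates of 0.41 and 0.04, with intervals that overlap between 0.19 and 0.26. The difference between them was not tested. Both probe sets were dim, at percentiles 22.6 and 25.6 of the mean level of all tested probe sets. Whether such levels stand above background was not tested.

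Cd40 (probe set 10478678), the TNF receptor through which helper T cells activate B cells, measured 8.57, 9.03 and 8.88 in KO and 8.52, 8.28 and 8.25 in WT. The lowest KO array, replicate 1, was only 0.05 above the highest WT array, also a replicate 1. The log2 difference was 0.47 (SE 0.13, 95% interval 0.18 to 0.77), or 1.39-fold higher in KO (limma, adjusted p = 0.293).

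Cd86 (probe set 10439312), a ligand of CD28 and CTLA-4 on T cells, measured 7.43, 7.07 and 6.80 in KO, against 7.79, 6.82 and 6.56 in WT. All KO values lay within the WT range, and replicate 1 was the highest array of each. The log2 difference was 0.04 (SE 0.30), with a wide 95% interval of -0.64 to 0.72 (limma, adjusted p = 0.985).

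Cd83 (probe set 10404840), which stabilises MHC class II and CD86 at the surface of activated cells, measured 6.32, 6.11 and 6.25 in KO and 6.35, 6.01 and 6.09 in WT. Its log2 difference was 0.08 (SE 0.11, 95% interval -0.17 to 0.32; limma, adjusted p = 0.908), and WT replicate 1 was the highest array. Bank1 (probe set 10502335) measured 11.34, 10.91 and 11.09 in KO and 11.24, 10.95 and 11.43 in WT. It was the 1 gene of the 10 with a lower KO mean, by a log2 difference of -0.10 (SE 0.15, 95% interval -0.43 to 0.24; limma, adjusted p = 0.914).

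**Figure D2:**
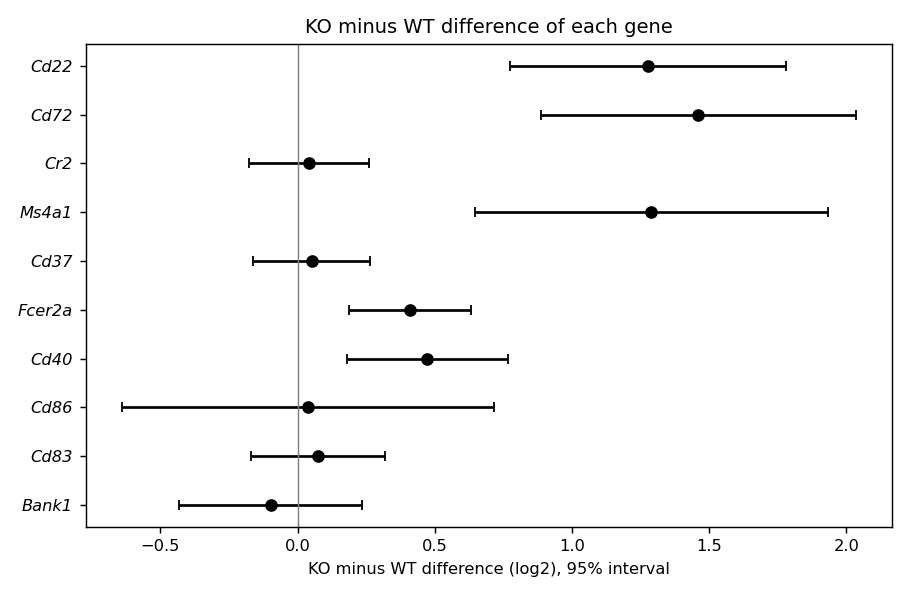
KO minus WT difference on the log2 scale (horizontal axis) of each gene, with points for the estimate and bars for the 95% interval from limma's moderated standard error, not adjusted for the number of genes. The intervals of Cd22, Cd72, Ms4a1, Fcer2a and Cd40 lie above 0 and those of the 5 other genes include it.

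Arrays of the same group differed too. Averaged over the 10 genes, the deviation from the WT mean was 0.40, 0.54 and 0.57 in KO replicates 1, 2 and 3 and 0.24, -0.13 and -0.11 in WT replicates 1, 2 and 3. WT replicate 1 exceeded the WT mean in 9 of the 10 genes, as did KO replicate 1, and WT replicates 2 and 3 did so in 2 and 4. The highest value of a gene fell in KO replicate 3 for 4 genes, in KO replicate 2 for 3, in WT replicate 1 for 2 and in WT replicate 3 for 1. The lowest fell in WT replicate 2 or 3 for 4 genes each. WT replicate 1 was thus the WT array nearest to the KO arrays. Leaving it out brought the median difference of the 10 genes to 0.42, and without WT replicate 2 it was 0.19.

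Cd22 recognises sialic acids in alpha-2,6 linkage, and 2 enzymes that make its preferred ligand in mice had higher KO values as well. St6gal1 encodes the sialyltransferase that forms this linkage. It measured 10.19, 10.82 and 10.75 in KO, against 9.70, 9.78 and 9.30 in WT, without overlap. Its difference was 0.99 (SE 0.19), or 1.99-fold higher in KO (limma, adjusted p = 0.124). Cmah encodes the hydroxylase that turns N-acetyl- into N-glycolylneuraminic acid, the form that mouse CD22 binds best. It measured 7.80, 8.74 and 8.18 in KO and 7.13, 6.73 and 6.77 in WT, also without overlap. Here the difference was 1.37 (SE 0.22), or 2.58-fold higher in KO (limma, adjusted p = 0.0869). Neither passed with all arrays, and both passed without KO replicate 1, the lowest KO array of both (limma, adjusted p = 0.0353 for St6gal1 and 0.0301 for Cmah). Under most alternatives, 13 of 14 for St6gal1 and 11 of 14 for Cmah, the gene did not pass (limma, adjusted p up to 0.415 and 0.242).

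**Figure D3:**
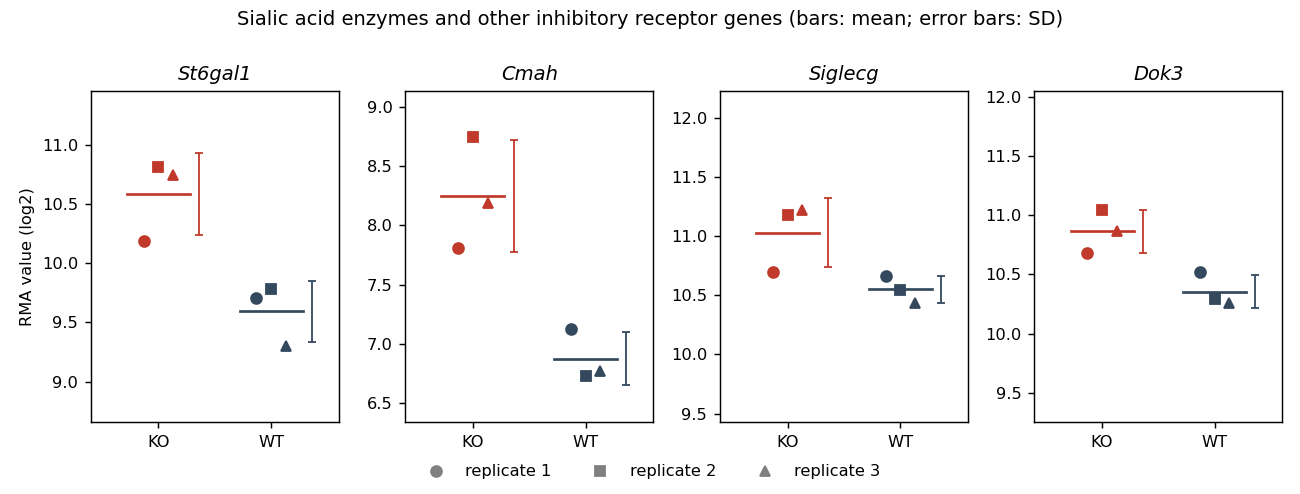
RMA value (log2, vertical axis) of St6gal1, Cmah, Siglecg and Dok3 in the 3 KO (red) and 3 WT (dark) arrays, with circles, squares and triangles for replicates 1, 2 and 3, a line at each group mean and error bars of 1 SD. In each of the 4 genes every KO array lies above every WT array, with the widest distance between group means in Cmah. The 4 are the 2 highest genes by moderated t of each of 2 lists. Every KO array lies above every WT array in 4 of the 9 ligand and processing genes and below in 1. The same holds upward for 3 of the 16 other inhibitory genes and downward for 0, against 5.94% of all probe sets upward.

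Over all probe sets 44.2% had a higher KO mean and 0.119% passed the threshold, for comparison with this list and those below. Among all 9 measured ligand and processing genes, 8 had a higher KO mean and 0 passed the threshold, with a median difference of 0.07. The exception was Sema4d, which encodes CD100, the ligand of CD72. It measured 10.89, 10.63 and 10.64 in KO, against 10.97, 10.94 and 10.98 in WT, with a difference of -0.24 (SE 0.09; limma, adjusted p = 0.448). The ligand gene of CD72 and the enzyme genes of the CD22 ligand thus had differences of opposite sign. Marchf1, a ubiquitin ligase that lowers CD86 and MHC class II at the surface, gave 0.01 (SE 0.12).

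Other inhibitory receptors of B cells and the proteins they recruit numbered 16, of which 11 had a higher KO mean and 0 passed. By unadjusted p under 0.05 (limma), 5 of the 16 were higher and 0 lower, against 4.48% and 4.73% of all probe sets. The mean deviation of this list was 0.08, 0.24 and 0.15 in KO replicates 1 to 3. In WT replicates 1 to 3 it was 0.11, -0.06 and -0.06, so WT replicate 1 lay above KO replicate 1. The median difference of these 16 genes was 0.01. Dok3, an adaptor that dampens antigen receptor signals, gave 0.51 (SE 0.11; limma, adjusted p = 0.192), and Siglecg, a sialic acid-binding relative of CD22, gave 0.48 (SE 0.14; adjusted p = 0.344). The lowest of this list by moderated t were Fcrl5 at -0.16 (SE 0.10) and Cd5 at -0.14 (SE 0.12).

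The antigen receptor, Cd81 and proximal signalling genes had 12 measured of 14 listed, 10 of them with a higher KO mean, 0 past the threshold and a median difference of 0.07. Pik3ap1, the adaptor BCAP that links the antigen receptor to PI3-kinase, gave 0.52 (SE 0.11; limma, adjusted p = 0.166), and Ighm, the IgM heavy chain, 0.90 (SE 0.25; adjusted p = 0.318). Cd81, a tetraspanin that associates with CR2, measured 12.85, 12.80 and 12.74 in KO, against 12.94, 12.93 and 12.91 in WT, with a difference of -0.13 (SE 0.07; adjusted p = 0.650). Blnk, the linker downstream of Syk, gave -0.03 (SE 0.07).

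Costimulation and CD40 signalling genes (16 measured of 18) had a median difference of 0.04, with 12 higher means and 0 calls. Traf5 and Birc3, which act in CD40 signalling complexes, gave 0.42 (SE 0.13; limma, adjusted p = 0.365) and 0.32 (SE 0.11; adjusted p = 0.399). Cd80, the other ligand of CD28, was the lowest of them. It measured 7.91, 7.23 and 6.62 in KO, against 8.59, 7.95 and 7.55 in WT, with a difference of -0.77 (SE 0.34; limma, adjusted p = 0.548), and as for Cd86 replicate 1 was the highest array of each group. The Cd80 difference was -1.11 without KO replicate 1 and -0.46 without KO replicate 3. Tnfrsf17, the receptor BCMA of plasma cells, gave -0.15 (SE 0.08).

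Relatives of CD20 and CD37 had values on both sides of 0. Of 17 MS4A and tetraspanin genes 8 had a higher and 9 a lower KO mean, 0 passed, and the median difference was -0.02. Ms4a6c gave 0.42 (SE 0.13; limma, adjusted p = 0.358) and Cd9 0.38 (SE 0.13; adjusted p = 0.433), while Ms4a6b gave -0.24 (SE 0.12) and Tspan31 -0.19 (SE 0.08).

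Transcription factors of B cell development had a higher KO mean in 17 of 18, against 44.2% of all probe sets, with a median difference of 0.27. The threshold was passed by 0. By unadjusted p under 0.05 (limma), 6 were higher and 0 lower, against 4.48% and 4.73% of all probe sets. The mean deviation of this list was 0.13, 0.39 and 0.33 in KO replicates 1 to 3. In WT replicates 1 to 3 it was 0.17, -0.05 and -0.11, so WT replicate 1 lay above KO replicate 1. Bach2, a repressor that restrains plasma cell differentiation, gave 1.02 (SE 0.23; limma, adjusted p = 0.194), and Klf2, a factor of lymphocyte quiescence, 0.81 (SE 0.19; adjusted p = 0.230). Foxo1 gave 0.02 (SE 0.07), and Id3, an inhibitor of E2A proteins, -0.24 (SE 0.21).

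**Figure D4:**
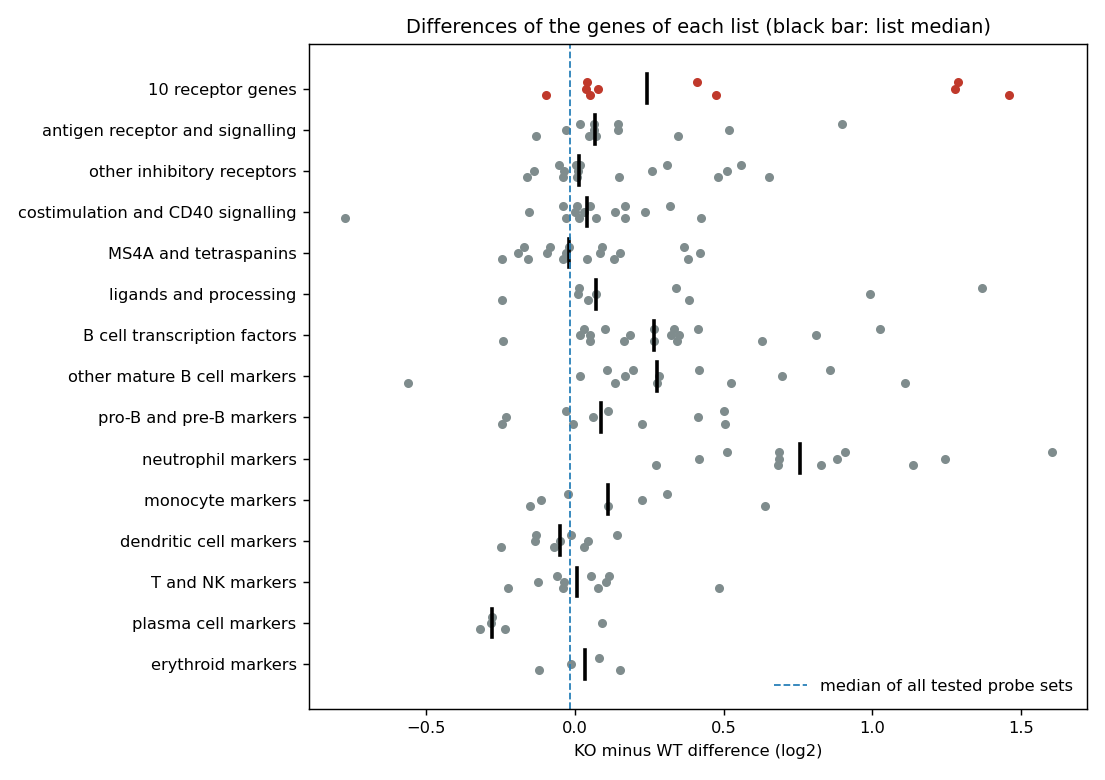
KO minus WT difference on the log2 scale (horizontal axis) of each measured gene of the 15 lists, 1 point per gene, with a black bar at the median of each list and a dashed line at the median of all tested probe sets (-0.02). The 10 receptor genes (red) spread from -0.10 to 1.46, and the neutrophil markers have the highest list median, 0.76.

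Other markers of mature B cells (13 measured of 15) had a median difference of 0.28, with 12 higher means and 0 calls. Ccr7, a chemokine receptor of lymphoid homing, gave 0.42 (SE 0.10; limma, adjusted p = 0.230), and Fcmr, the receptor for IgM, 1.11 (SE 0.34; adjusted p = 0.365). H2-Ab1, an MHC class II chain, gave 0.02 (SE 0.10), and Ltb, lymphotoxin beta, -0.56 (SE 0.20; adjusted p = 0.438). The mean deviation of this list was 0.15, 0.49 and 0.33 in KO replicates 1 to 3 and 0.22, -0.07 and -0.14 in WT replicates 1 to 3, so WT replicate 1 lay above KO replicate 1.

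Markers of precursor B cells, other than Kit, had group means above the median of all tested probe sets (7.58) in these cells sorted for BP-1. Enpep, the gene of BP-1, lay between 12.23 and 12.54 in KO and between 12.54 and 12.63 in WT, and Igll1, the surrogate light chain gene, between 13.96 and 14.00 in KO and between 13.93 and 14.02 in WT. Kit, a receptor of early progenitors, averaged 7.10 in KO and 6.59 in WT. Of the 10 pro-B and pre-B markers 6 had a higher KO mean, 0 passed and the median difference was 0.09. Rag2 and Rag1, the subunits of the recombinase, gave 0.42 (SE 0.10; limma, adjusted p = 0.260) and 0.50 (SE 0.16; adjusted p = 0.379), while Dntt gave -0.25 (SE 0.16) and Enpep -0.23 (SE 0.09). In a sorted bulk sample, more cells with a transcript and more of it per cell cannot be told apart.

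Neutrophil markers, too, had higher means in the KO group. All 12 had a higher KO mean, against 44.2% of all probe sets, with a median difference of 0.76. The threshold was passed by 3 of the 12, all higher in KO, against 0.119% of all probe sets in either direction. Among them were Mpo and Ctsg, granule enzymes, at 1.61 (SE 0.12; limma, adjusted p = 0.00512) and 1.14 (SE 0.10; adjusted p = 0.0128). The third was Elane, neutrophil elastase, at 1.24 (SE 0.15; limma, adjusted p = 0.0307), named after its values were seen. Its call was not followed with arrays left out. Ctsg lost its call when KO replicate 3 was left out (adjusted p = 0.0996), and likewise for WT replicate 1 (0.0529) and WT replicate 3 (0.0561). The lowest by moderated t were Cd177 at 0.27 (SE 0.13) and Camp at 0.42 (SE 0.21), which moved between 0.16 and 0.43 for Cd177 and between 0.20 and 0.65 for Camp with 1 array left out. Their summed linear level was 11144 to 13018 in KO and 5506 to 9485 in WT. Within WT the order differed from that of the receptors: neutrophil markers were lowest in replicate 1 and highest in replicate 2, at mean deviations of -0.29 and 0.31, where the receptors were at 0.24 and -0.13. Whether the neutrophil transcripts have a part in the receptor values was not tested.

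Dendritic cells and monocytes can also carry CD40, CD83 or CD86. Their markers measured here had group means below the median of all tested probe sets, apart from Lyz2. Of 9 dendritic cell markers 3 had a higher KO mean and 0 passed, with a median difference of -0.05 and a summed linear level of 749 to 796 in KO and 721 to 860 in WT. Xcr1 and Siglech gave 0.14 and 0.05, and Flt3 and Clec9a -0.25 and -0.13. Of 7 monocyte markers 4 had a higher KO mean and 0 passed, with a sum of 1314 to 1423 in KO and 925 to 1266 in WT. Lyz2 and Fcgr3, which neutrophils express too, gave 0.64 and 0.31, and Lyz2 passed without WT replicate 2 (limma, adjusted p = 0.0352), while Csf1r and Cd14 gave -0.11 and -0.15. T and NK markers (10, with sums of 823 to 874 in KO and 766 to 905 in WT) had 5 higher means, led by Nkg7 at 0.49 and Cd28 at 0.11, with Cd8a at -0.22 and Klrd1 at -0.12. Plasma cell markers (5, with sums of 8413 to 10147 in KO and 10872 to 12152 in WT) had 4 lower means, Mzb1 at -0.32, Xbp1 at -0.28 and Prdm1 at -0.23 among them, and Jchain at 0.09. Erythroid markers (4, with sums of 494 to 581 in KO and 474 to 562 in WT) gave 0.15 for Slc4a1, 0.08 for Klf1, -0.01 for Ermap and -0.12 for Epor. None of the T and NK, plasma or erythroid markers passed, and array values have no 0 that would show a transcript to be missing.

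**Figure D5:**
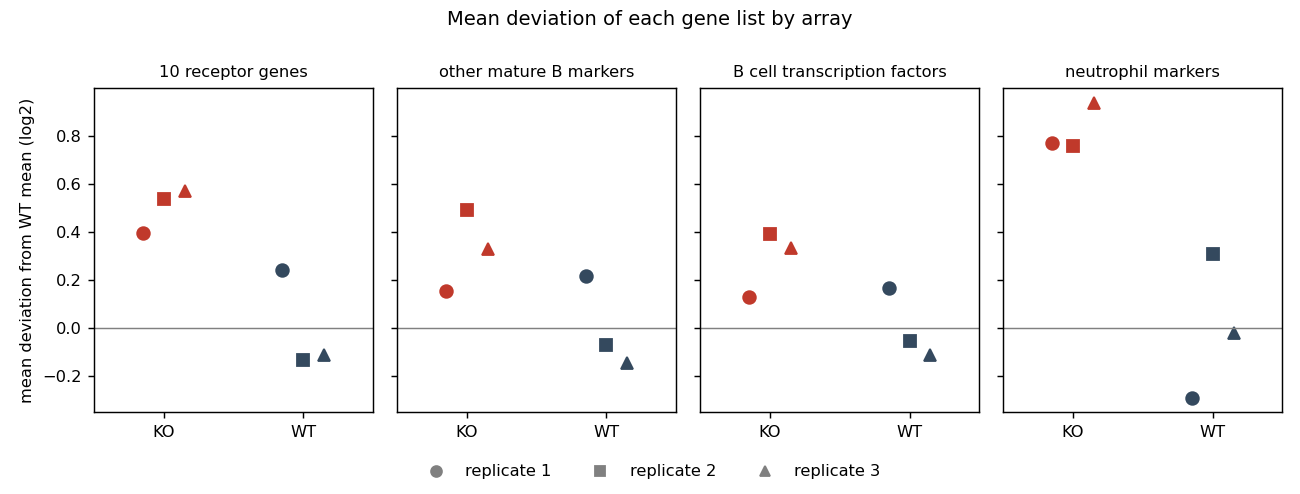
Mean deviation of 4 gene lists from their WT means (log2, vertical axis) in the 3 KO (red) and 3 WT (dark) arrays, with circles, squares and triangles for replicates 1, 2 and 3. The 10 receptor genes lie at 0.40 to 0.57 in KO and at -0.13 to 0.24 in WT, and WT replicate 1 is the highest WT array in the first 3 panels and the lowest among neutrophil markers.

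Genes whose profile over the 6 arrays was most like that of Cd22 were sought among 18713 genes, by the root mean square difference between the deviations of the genes from their own means. The nearest were Gpr155 (0.127), Rnase6 (0.130), Cmah (0.132) and Rapgefl1 (0.139). Cmah, described above for the CD22 ligand, was among the 4 genes nearest to Cd22. The likeness is taken over KO and WT arrays together, so it contains their difference (1.37 for Cmah and 1.28 for Cd22). It is therefore not independent of the values given above, and a link between Cmah and Cd22 was not tested. For Ms4a1 the nearest were Ralgps2 (0.205), Polm (0.268), Rnase6 (0.287) and B3gnt5 (0.297). Rnase6 stood on both lists, and its values were 8.71, 9.60 and 9.25 in KO and 8.59, 7.57 and 7.71 in WT. These genes were picked for their pattern, so their KO and WT values carry no test.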

How the data were processed

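Total RNA of 3 KO and 3 WT samples was amplified, labelled as cDNA with biotin and hybridised to Affymetrix arrays, as the labels' protocols give it. The authors deposited log2 values, which the submitters' processing notes trace to RMA and to version 1.1 of Affymetrix Expression Console; the options and annotation are not given in the sources used here. RMA in its usual form equalises the arrays, which removes shifts common to all genes, and compresses changes of dim transcripts. Of 35556 rows, 21789 with exactly 1 symbol in the platform annotation (19938 genes) were tested; 1621 had several symbols and 12146 are unnamed here. Gene IDs were checked against RefSeq (GRCm38.p6), where 91 had no match.

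KO was compared with WT by limma 3.58.1 in R 4.3.3 (lmFit, eBayes), without covariates or a filter, with two-sided p-values adjusted by Benjamini-Hochberg over all 21789 probe sets and a threshold of 0.05. Differences are KO minus WT, with moderated standard errors. The 10 genes, the 14 other gene lists and the motifs were chosen with earlier results of these data known. Another gene of the antigen receptor list is not reported here. Named are the 10 genes, the 2 highest and 2 lowest genes of each list by moderated t, the 4 genes nearest in profile to Cd22 and to Ms4a1, Jup and Xist; Sema4d, St6gal1, Cmah and Marchf1 are the 4 of their list. The values of Igll1, Kit and Elane had been seen when these were added. On simulated data, drawn independently for each probe set, the fit recovered large planted changes more often than small ones, which any such fit would do. Shifts that the genes of an array share were not simulated. Also tried were leaving out dim probe sets, other sets of rows, another variance prior, array weights, 2 other scalings, a replicate block, each array left out, and an adjusted p of 0.1. The number of arrays limits the precision.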

Additional observations from a re-analysis of the deposited data

How the results depend on the processing

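The 26 probe sets called became 69 over all rows of the table (10 higher, 59 lower), 40 with a trended and robust prior, 150 with array weights (93 higher, 57 lower), 55 with arrays centred on their medians, 58 at an adjusted p under 0.1, and 5 to 82 with 1 array left out. Of the 10 receptor genes, 3 were called with array weights (Cd22, Cd72 and Ms4a1), 1 with median centring (Cd72), and 0 to 2 with 1 array left out, against 0 with all arrays. Their median difference was 0.47 without dim probe sets, where only 7 of them are left, and 0.19 to 0.42 with 1 array left out. The count higher at an unadjusted p under 0.05, added after the data were seen, was 5 under 13 alternatives and 4 without dim probe sets, and the count without overlap, added likewise, was 5 to 6 with 1 array left out, where 7.89% to 14.5% of all probe sets did not overlap in that direction. Cd22, Cd72, Ms4a1, Fcer2a, Cd40 and Cd83 kept their sign under every alternative that tested them, but Cd83 lay between 0.0083 and 0.18 with 1 array left out. With array weights Cd177 was at 0.13 and Camp at 0.20. Array weights also brought calls for Pik3ap1, Dok3, Cmah, Klf2, Bach2 and Ccr7, and median centring for Cmah. With 1 array left out the sign turned for Cd86 (-0.21 to 0.40), Bank1 (-0.22 to 0.015), Cr2 (-0.033 to 0.099) and Cd37 (-0.034 to 0.13). It also turned for Blnk (-0.054 to 0.0054), Cd5 (-0.25 to 0.0012), Marchf1 (-0.063 to 0.12), Id3 (-0.44 to 0.015), Foxo1 (-0.013 to 0.040), H2-Ab1 (-0.074 to 0.089), Siglech (-0.071 to 0.12), Klrd1 (-0.26 to 0.062), Jchain (-0.044 to 0.25) and Ermap (-0.14 to 0.064). With array weights Blnk was at 0.00064 and Siglech at -0.023. The causes were not tested. Deviations of same-numbered KO and WT arrays from their group means correlated at 0.104, -0.0043 and 0.275. KO replicates 1 and 3 correlated best with the WT array of the same number, and KO replicate 2 with WT replicate 1 (0.134). These values do not settle whether the numbers mark pairs, and no pairing was assumed. The labels also hold a second number that the KO and WT samples of each replicate number share; its meaning is not stated, and it would give the same block. With the replicate block 19 probe sets were called and 0 of the 10 genes were called. No other named gene followed under the alternatives changed its call. Elane, Igll1, Kit and Xist were not followed under them.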
